A study of Mus musculus with 2 samples.

Results

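The cornified envelope genes code for the proteins that a keratinocyte cross-links into a shell beneath its membrane when it turns into a dead surface cell. They were taken by name, as every gene symbol that starts with Sprr or Lce and a digit, together with Lor, Ivl, Flg, Flg2, Crnn, Tgm1, Tgm3, Rptn, Hrnr, Ppl, Evpl and Cnfn. This gave 48 of the 32285 genes in the files. The rule itself uses gene symbols and no measured value. The cells came from the palatal gingiva of female mice of strain C57BL/6, written C57Bl6/J in the treatment notes, 8 to 12 weeks old. Each mouse had received 3 µl of a ligand at 1 µg/ml on the palate for 1 h under an oral appliance, and the tissue was taken 4 days later. The TLR9 ligand was the synthetic CpG oligonucleotide CpG ODN, and the TLR2/4 ligand was lipopolysaccharide (LPS) of Porphyromonas gingivalis. Cells of 4 mice were combined for each ligand into 1 library, so the ligands could not be tested against each other for want of replicates, and an untreated library was not analysed here.

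In a stratified epithelium the plakins periplakin and envoplakin and the protein involucrin are laid down first, transglutaminases join them, and small proline-rich (Sprr) proteins, loricrin and late cornified envelope (Lce) proteins are added as the cell moves up. Filaggrin, which belongs with its relatives to the large S100-fused proteins, binds the keratin filaments inside the same cells. The palate and the outer gingiva carry a keratinised surface, while the junctional epithelium that seals the gingiva to the tooth does not keratinise. Most of these genes lie in a gene-dense region called the epidermal differentiation complex.

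The data were counts of unique molecular identifiers (UMIs), each standing for 1 captured RNA molecule read from its 3′ end, so levels were not divided by transcript length. Levels are given as CPM, the UMIs of a gene per 1000000 UMIs summed over the cells of a layer. The CpG ODN library held 6219 barcodes and 72173148 UMIs, of which the 4888 with 800 or more detected genes, at a median of 11077.5 UMIs, were used as cells. The LPS library held 2016 barcodes and 38656738 UMIs, and 1277 were used, at a median of 22680 UMIs. The libraries shared 5 barcodes, 1 of them among the cells kept. Cells were clustered without the 48 genes and without the related gene lists described below, and 3754 and 987 cells of the CpG ODN and LPS libraries, in that order here and throughout, fell into keratinocyte clusters. The clusters were grouped into layers by their leading genes, with limits set after the clusters had been seen. Basal-like cells (1163 and 276) had 10 of 12 basal markers, among them Krt5 at 6444 and 6795 CPM. Dividing-like cells (245 and 59) had 10 of 10 markers of division. Krt76 cells (1317 and 251) had 7 of 10 lower spinous markers, and Krt10 cells (780 and 203) had 6 of 13 upper markers. The Krt10 cells were parted by the secreted protein gene Slurp1 into Slurp1-low cells (518 and 139) and Slurp1-high cells (262 and 64). Krt4-high cells (120 and 92) carried Krt4 at 21195 and 30081 CPM. H19-led cells (94 and 81) and Odam-led cells (35 and 25) were called by their leading genes only.

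Of the 48 genes, 28 reached 100 UMIs over the keratinocytes of both libraries and are given with values. Of the other 20, Lce6a had no UMI, 16 had between 1 and 20, and 3 had more, namely Ivl with 93, Lce1f with 67 and Sprr2b with 51. The kept keratinocytes thus held few UMIs of involucrin, an early envelope scaffold, and few of the Lce1 family, whose 14 genes together had 147. For Lce1 this depends on the limit of 800 detected genes. Barcodes under it had 2651 and 82 Lce1 UMIs, against 141 and 10 in all kept cells. The 6 genes of the Lce3 family had 24128. The 11 Sprr2 genes had 9448 and the 2 Sprr1 genes had 61056. Members with near-identical copies could not all be told apart. In the last 400 bases of their annotated transcripts, 30 genes shared no stretch of 75 bases with another gene, while Sprr2a1 and Sprr2a2 shared all of theirs and Sprr2a3 shared 57.1%. Values of these 3 genes are uncertain for that reason. Among the Lce3 genes the share ran from 6.44% for Lce3a to 39.6% for Lce3c.

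By identifier all 48 genes were found in the GENCODE M21 annotation of GRCm38, the build used for coordinates here because the sources name none. On chromosome 3, 43 of them lay between bases 92080271 and 93399442, a span of 1319 kb, and the other 5 were Tgm3 on chromosome 2, Cnfn on 7, Evpl on 11, Tgm1 on 14 and Ppl on 16. Along the span, Lor stood at the start, then the 11 Sprr2 genes (92215799 to 92433925), then Sprr1b, Sprr3 and Sprr1a, a block of 13 Lce1 genes (92646535 to 92851286), the 6 Lce3 genes (92925287 to 92993426), and the S100-fused genes Crnn, Flg2, Flg, Hrnr and Rptn (93144787 to 93399442).

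RefSeq promoters on GRCm38.p6 were matched for 44 of the 48 genes. The 250 bases before the start were searched for the AP-1 letters TGANTCA, the octamer ATTTGCAT and the KLF letters CCACCC on both strands, and for TATAAA on the strand of the gene. AP-1 letters were in 15 of 44 (34.1%) against 6.87% of 27025 promoters, octamers in 7 of 44 (15.9%) against 1.61%, TATAAA in 19 of 44 (43.2%) against 8.12%, and KLF letters in 11 of 44 (25%) against 27.7%. A match describes the letters only and is not a shown binding site. The promoters below stand for the 3 patterns of level that the results turn on, and each run covers the 150 bases before the start, 5′ to 3′, with AP-1 letters and octamers in capitals. The first set holds S100-fused genes that were highest in the Slurp1-high cells. Of the 4 such genes the 3 shown carry the AP-1 letters TGAATCA, 69 to 103 bases before the start, and the other, Hrnr, has no AP-1 letters in its promoter. AP-1 letters were not particular to this pattern. The S100-fused gene Rptn, highest in Krt4-high cells, has them 96 bases before its start.
Crnn, chr3:93144639-93144788, plus strand: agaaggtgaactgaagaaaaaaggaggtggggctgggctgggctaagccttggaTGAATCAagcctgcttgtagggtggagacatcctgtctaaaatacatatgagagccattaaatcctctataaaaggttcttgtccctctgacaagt
Flg2, chr3:93197123-93197272, plus strand: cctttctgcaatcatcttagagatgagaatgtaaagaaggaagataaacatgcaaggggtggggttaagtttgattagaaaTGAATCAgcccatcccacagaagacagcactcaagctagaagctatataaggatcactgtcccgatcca
Flg, chr3:93273396-93273545, plus strand: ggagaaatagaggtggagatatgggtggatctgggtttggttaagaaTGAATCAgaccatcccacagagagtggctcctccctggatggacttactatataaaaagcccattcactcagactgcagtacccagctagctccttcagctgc
The next set holds a pair of genes that were highest in the Krt4-high cells. Lor had AP-1 letters 48 bases before its start, and Lce3e, like the other 5 Lce3 promoters, had none of the 4 motifs.
Lor, chr3:92083143-92083292, minus strand: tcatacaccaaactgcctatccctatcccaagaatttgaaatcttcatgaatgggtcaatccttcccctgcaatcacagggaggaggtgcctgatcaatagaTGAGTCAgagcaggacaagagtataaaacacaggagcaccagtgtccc
Lce3e, chr3:92966911-92967060, plus strand: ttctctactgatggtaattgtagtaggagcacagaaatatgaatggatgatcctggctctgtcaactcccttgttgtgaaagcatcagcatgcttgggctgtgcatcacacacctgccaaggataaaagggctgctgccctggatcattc
The last set holds Sprr2 genes that were highest in the Odam-led cells, each with an octamer 108 to 112 bases before the start. Octamer, AP-1 and TATAAA letters were found in 7 of 10 Sprr2 promoters (Sprr2b, Sprr2d, Sprr2e, Sprr2f, Sprr2h, Sprr2i and Sprr2k), with the AP-1 letters of the 3 shown lying 193 to 198 bases before the start and thus outside the printed run. The octamer was not particular to genes highest in Odam-led cells. Sprr2k was highest in Krt4-high cells in both libraries, and Sprr2b was so in the CpG ODN library.
Sprr2d, chr3:92338990-92339139, plus strand: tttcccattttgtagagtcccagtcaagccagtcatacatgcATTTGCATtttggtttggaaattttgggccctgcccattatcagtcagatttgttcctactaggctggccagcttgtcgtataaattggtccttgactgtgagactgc
Sprr2f, chr3:92365037-92365186, plus strand: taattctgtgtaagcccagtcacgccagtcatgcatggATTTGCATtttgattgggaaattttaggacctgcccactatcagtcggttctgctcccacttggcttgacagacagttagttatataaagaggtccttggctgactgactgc
Sprr2h, chr3:92385535-92385684, plus strand: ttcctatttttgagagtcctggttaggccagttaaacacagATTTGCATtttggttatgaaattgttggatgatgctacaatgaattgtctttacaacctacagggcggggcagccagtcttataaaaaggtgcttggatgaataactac

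Summed over the 48 genes, the level rose from basal-like through Krt76 and Slurp1-low to Slurp1-high cells in both libraries. The sum was highest in Krt4-high cells, though the median cell of that layer was below the median Slurp1-high cell, as given below. Basal-like cells had 136 and 178 CPM, dividing-like cells 162 and 178, and H19-led cells 255 and 355. Krt76 cells had 439 and 560, Slurp1-low cells 1698 and 1944, Slurp1-high cells 7019 and 6451, and Krt4-high cells 13935 and 23155. Odam-led cells had 7016 and 13712. B cells of the same libraries, which are not known to make these proteins, had 38.5 and 33.8, from 26 and 8 UMIs. Fibroblasts had 695 and 254, with Ppl at 225 and 125, Tgm3 at 87.7 and 105, and Lor at 172 and 7.95. Few cells gave much of this, the top cell holding 42.2% and 23.4% of the fibroblast envelope gene UMIs and the top 3 cells 61.6% and 52.3%. The median fibroblast had 0.0178% and 0.0102% of its UMIs in the 48 genes. The part of free RNA in these levels was not tested. Krt10 cells together stood 27.4-fold (95% interval 26.0 to 28.8) above basal-like cells in the CpG ODN library and 19.8-fold (18.6 to 21.2) in the LPS library. When layers were set in other ways these ratios fell as low as 8.33 and 6.15, and they stayed well above 1. Intervals here and below cover the counting of UMIs only, not differences between mice or preparations.

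**Figure D1:**
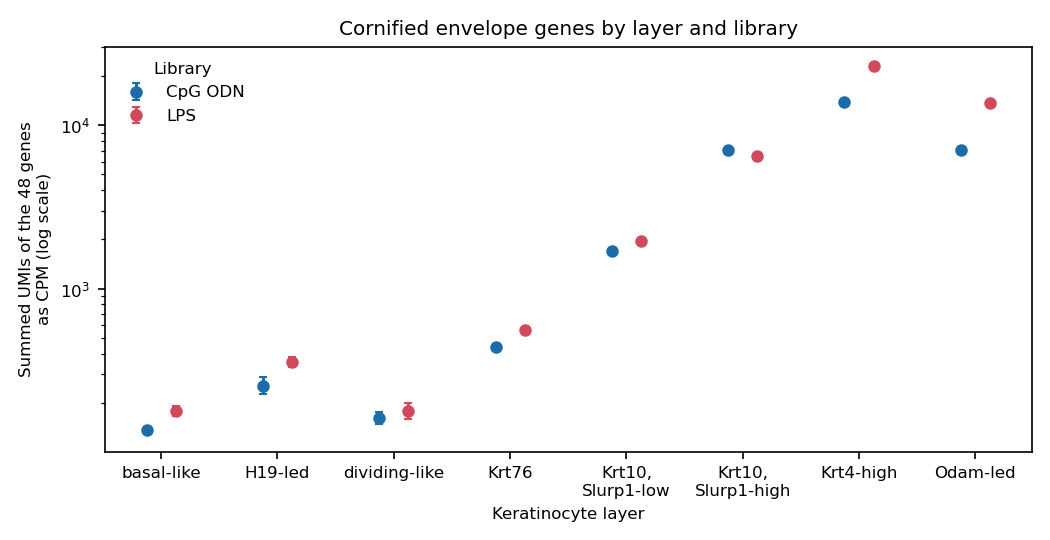
Summed UMIs of the 48 cornified envelope genes as CPM (vertical axis, log scale) in 8 keratinocyte layers (horizontal axis), 1 point per library, with bars for the exact 95% counting interval. The level runs from 136 and 178 in basal-like cells to 13935 and 23155 in Krt4-high cells, and the LPS point lies above the CpG ODN point in every layer but the Slurp1-high cells.

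The climb was seen in nearly all genes that reached the limit for comparing, though many reached it through the upper layer alone. A gene was compared when it had at least 20 UMIs over both groups, and it was counted as higher or lower when the groups stood at least 2-fold apart. In this and the later comparisons of layers, a gene could pass through 1 group alone, which largely fixed its direction. Between basal-like and Krt10 cells, 18 of 19 genes were higher in Krt10 cells in the CpG ODN library, where 9.73% of all genes were, and 17 of 17 were higher in the LPS library, where 9.98% of all genes were. None was lower, against 33.4% and 30.5% of all genes. The median log2 ratio of these genes was 4.79 and 4.65, beside -0.56 and -0.50 over all genes compared. Many of them passed through Krt10 cells alone and could hardly be counted as lower. In the CpG ODN library Sprr2h had 23 UMIs in Krt10 and 0 in basal-like cells, and Flg had 4926 and 5. Tgm3, Lor, Evpl and Ppl had over 20 UMIs in basal-like cells of both libraries, and all were higher in Krt10 cells. A smaller step lay between basal-like and Krt76 cells, 3.22-fold (3.05 to 3.40) and 3.15-fold (2.94 to 3.39), with 8 of 13 and 8 of 11 genes higher (4.81% and 4.96% of all genes). From Slurp1-low to Slurp1-high cells the sum was 4.13-fold and 3.32-fold higher, with 16 of 19 and 15 of 17 genes higher (5.16% and 4.66% of all genes) and 1 lower in each (11% and 9.94%).

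**Figure D2:**
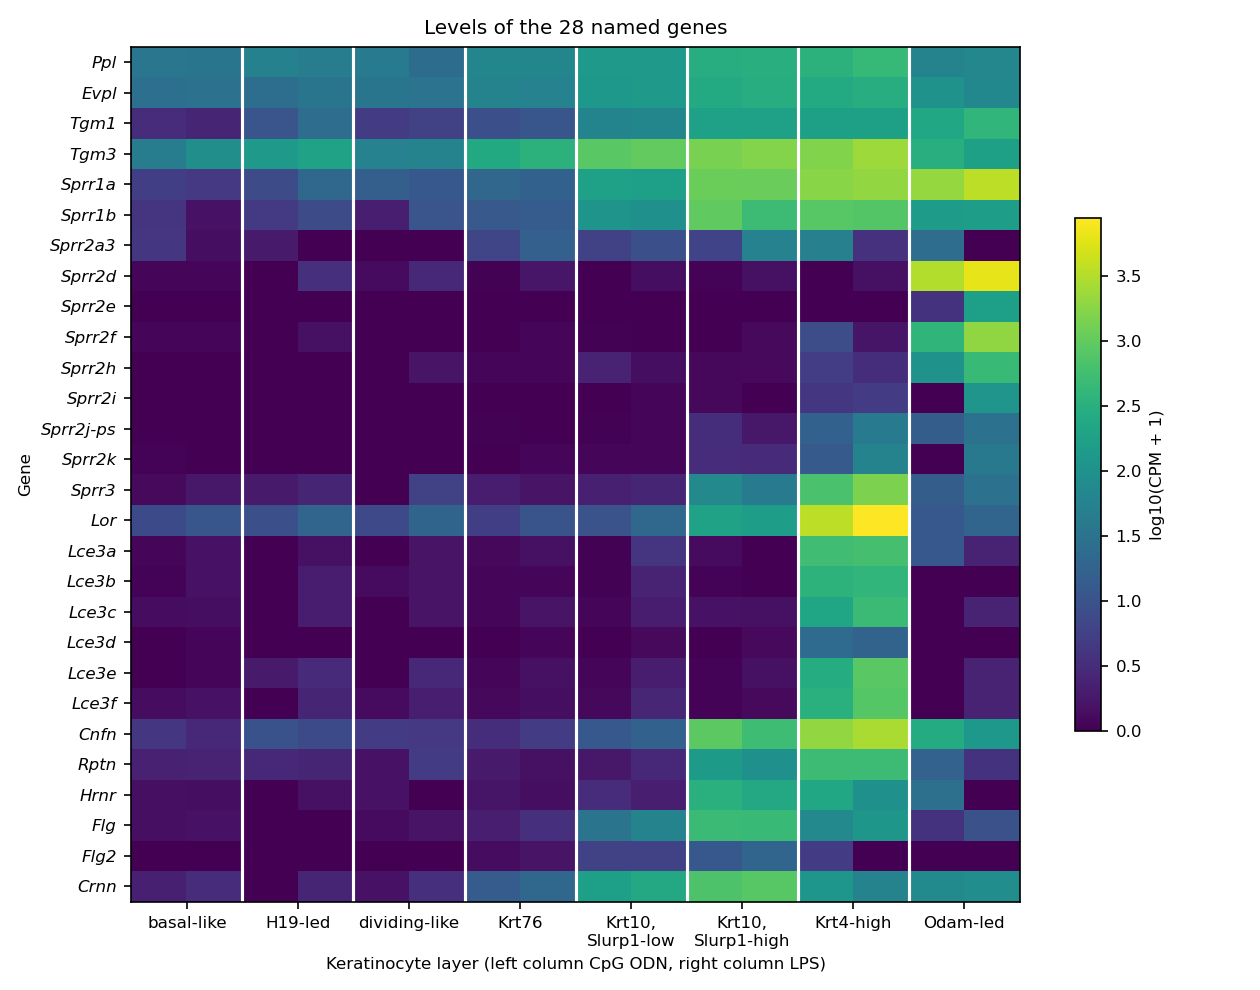
Levels of the 28 genes with at least 100 keratinocyte UMIs, as log10 of CPM plus 1 (colour), by gene (rows) and keratinocyte layer (columns, CpG ODN left and LPS right within each layer). Colours are to be read along a row. The plakin and Tgm3 rows are lit in every layer, the Lce3 rows in Krt4-high cells, and Sprr2d, Sprr2e, Sprr2f and Sprr2h in Odam-led cells.

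The plakin genes were found in every layer. Ppl, which codes for periplakin, had 35.0 and 33.4 CPM in basal-like cells, 62.8 and 63.5 in Krt76 cells, 283 and 298 in Slurp1-high cells and 346 and 440 in Krt4-high cells. Evpl, which codes for its partner envoplakin, had 26.2 and 29.6 in basal-like cells and 257 and 285 in Slurp1-high cells. UMIs of both plakins were thus counted below the keratinised layers. The fibroblast level of Ppl given above was higher than its basal-like level in both libraries. The part of free RNA in these levels was not tested. At least 1 Ppl UMI was found in 26.3% (23.8 to 28.9) and 37.7% (31.9 to 43.7) of basal-like cells, against 1.77% and 2.90% of B cells, which were shallower with medians of 2149 and 3157 UMIs. After each cell was thinned to 1500 UMIs the Ppl shares were 5.02% and 4.61% in basal-like cells and 0.936% and 1.36% in B cells. Involucrin, the other scaffold protein, had 5 and 0 UMIs of Ivl in basal-like cells.

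The transglutaminases form the bonds of the envelope. In basal-like cells Tgm3 had more UMIs than any other of the 48 genes, 34.1% and 49.7% of their sum. Its fibroblast level given above was higher than its basal-like level in both libraries. Tgm3, which codes for the enzyme that joins soluble envelope proteins before they are fixed at the membrane, had 46.5 and 88.3 CPM in basal-like cells, 247 and 343 in Krt76 cells, 856 and 995 in Slurp1-low cells, 1395 and 1622 in Slurp1-high cells and 1550 and 2343 in Krt4-high cells. It gave 56.4% and 61.2% of all envelope gene UMIs in Krt76 cells, and it was found in 258 of 262 and 63 of 64 Slurp1-high cells. In Odam-led cells it had 293 and 172. Tgm1, which codes for the membrane-bound enzyme, had 2.12 and 1.55 in basal-like cells, 177 and 181 in Slurp1-high cells and 176 and 174 in Krt4-high cells. Its highest level, 230 and 388, was in Odam-led cells, where Tgm3 was lower than in Krt10 cells.

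The Sprr genes code for short proline-rich cross-bridging proteins, and they did not share a pattern. Sprr1a had 4.41 and 3.48 CPM in basal-like cells, 177 and 170 in Slurp1-low cells, 1158 and 1104 in Slurp1-high cells, 1728 and 2052 in Krt4-high cells and 2095 and 3600 in Odam-led cells. Sprr1b had 944 and 505 in Slurp1-high cells, 832 and 769 in Krt4-high cells and 149 and 160 in Odam-led cells. Sprr3, known from the oesophagus and other internal stratified epithelia, had 70.3 and 43.3 in Slurp1-high cells and 645 and 1469 in Krt4-high cells. The Sprr1 genes were thus found in all upper layers, whereas Sprr3 was found mainly in Krt4-high cells.

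Loricrin is the main protein of the envelope in skin. Lor had 6.71 and 10.4 CPM in basal-like cells, 4.41 and 9.54 in Krt76 cells, 9.34 and 19.8 in Slurp1-low cells, 186 and 160 in Slurp1-high cells and 3607 and 8804 in Krt4-high cells. In B cells it had 1.48 and 8.45, from 1 and 2 UMIs, so that in the LPS library the levels in the lower layers were near that of B cells. The fibroblast level of Lor given above was higher than in basal-like cells in the CpG ODN library and lower in the LPS library. The Lce3 genes, known to be raised in injured or inflamed skin, were like Lor highest in Krt4-high cells. Their summed level was 1720 and 3181 in Krt4-high cells, 1.20 and 1.55 in Slurp1-high cells and 0.605 and 8.35 in Slurp1-low cells. From Slurp1-low to Slurp1-high cells the Lce3 genes thus did not rise as Lor did, but these levels rest on few UMIs. In CpG ODN they came from 9 UMIs in Slurp1-low and 11 in Slurp1-high cells, and in LPS from 60 and 6. Basal-like cells had 0.971 and 2.51 CPM and Krt76 cells 0.832 and 2.29, near the Slurp1-high levels. Among the Lce3 genes, Lce3a had 538 and 613 in Krt4-high cells, Lce3b 355 and 395, Lce3c 204 and 495, Lce3e 280 and 856, and Lce3f 320 and 805, while Lce3d had 22.6 and 16.8. Cnfn, which codes for cornifelin, a small envelope protein, had 882 and 528 in Slurp1-high cells and 2013 and 2747 in Krt4-high cells.

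The S100-fused genes had another order. Flg, which codes for filaggrin, had 0.441 and 0.580 CPM in basal-like cells, 32.1 and 58.0 in Slurp1-low cells, 484 and 461 in Slurp1-high cells, 69.8 and 120 in Krt4-high cells and 2.77 and 8.52 in Odam-led cells. Crnn, which codes for cornulin, had 695 and 843 in Slurp1-high cells and 116 and 58.1 in Krt4-high cells. Hrnr, which codes for hornerin, had 322 and 236 in Slurp1-high cells and 226 and 93.2 in Krt4-high cells. Flg2 was low throughout, with 11.2 and 18.3 in Slurp1-high cells. Rptn, which codes for repetin, went with Lor, with 140 and 93.9 in Slurp1-high cells and 513 and 512 in Krt4-high cells.

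Krt4-high and Slurp1-high cells therefore held unlike envelope transcripts. Summed over the 48 genes, Krt4-high cells stood 1.99-fold (1.96 to 2.01) and 3.59-fold (3.54 to 3.64) above Slurp1-high cells. Higher in Krt4-high cells were 16 of 26 genes in the CpG ODN library and 13 of 25 in the LPS library, where 11.9% and 12.3% of all genes were, and lower were 3 and 6 genes (3.92% and 4.28% of all genes). Of 24 genes compared in both libraries, 12 were higher in both, namely Cnfn, Lor, Rptn, Sprr3, Sprr2k, Sprr2j-ps, which this annotation lists as protein-coding, and the 6 Lce3 genes, and 3 were lower in both, namely Crnn, Flg and Flg2. In Krt4-high cells Lor gave 25.9% and 38.0% of envelope gene UMIs and Lce3 genes 12.3% and 13.7%. In Slurp1-high cells the Sprr1 genes gave 29.9% and 24.9% and the S100-fused genes 23.5% and 25.6%.

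**Figure D3:**
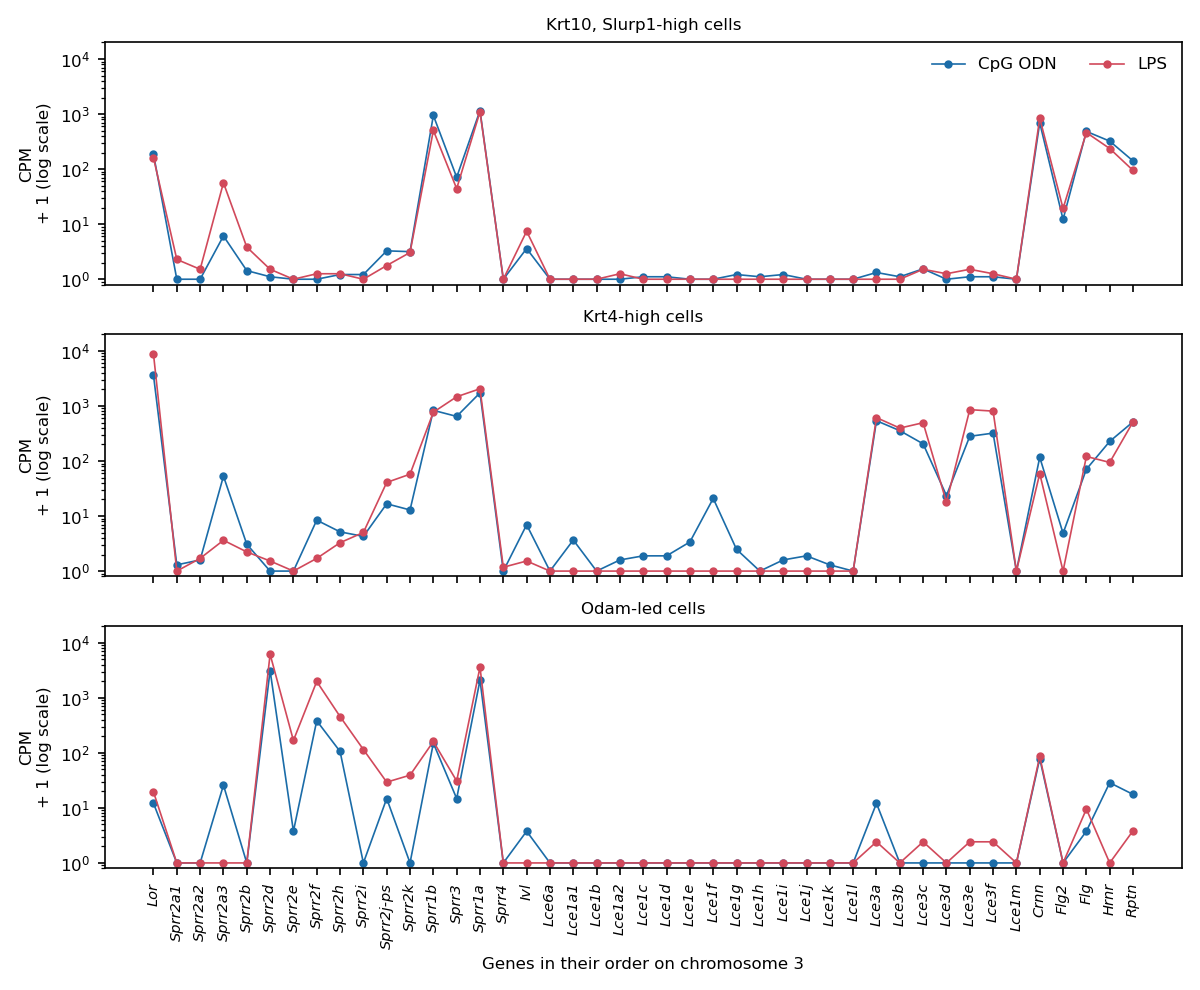
Levels of the 43 genes on chromosome 3 in CPM plus 1 (vertical axis, log scale), placed in chromosomal order (horizontal axis, not to distance), in Slurp1-high, Krt4-high and Odam-led cells, 1 line per library. Crnn, Flg2, Flg and Hrnr stand highest in the top panel, the Lce3 genes, Sprr3 and Rptn in the middle panel and Sprr2d, Sprr2e, Sprr2f, Sprr2h and Sprr1a in the bottom panel. Sprr2j-ps and Sprr2k, next to Sprr2i, stand highest in the middle panel, and the Lce1 block stays near 0 but for Lce1f in CpG ODN Krt4-high cells.

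The high sums in Krt4-high cells came from few cells. The median Krt4-high cell had 0.289% and 0.294% of its UMIs in the 48 genes, the highest had 15.7% and 19.9%, and the 3 cells with the most gave 23.6% and 40.7% of all envelope gene UMIs of the layer. Cells with at least 10 Lor UMIs per 10000 were 24 of 120 (20.0%, exact 95% interval 13.3 to 28.3) in the CpG ODN library and 24 of 92 (26.1%, 17.5 to 36.3) in the LPS library. This is a range and not a cell type, and 7 and 3 cells lay within 2-fold of the limit. These cells held 98.2% and 99.3% of the layer's Lor UMIs, a share made high by picking them on Lor. Of genes not used to pick them, they held 99.5% and 99.9% of Lce3 and 91.4% and 99.9% of Rptn UMIs. They also held 89.5% and 96.4% of Sprr3 and 69.9% and 89.9% of Cnfn, but 44.0% and 59.3% of Tgm3 UMIs. They had more UMIs than the rest, with medians of 45100 and 86164 against 23262 and 45309. The part of this depth in the difference was not tested.

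Filaggrin and loricrin overlapped in part. In Slurp1-high and in Krt4-high cells, most cells with the rarer of the pair also had the other. With at least 5 UMIs taken as found, Flg was found in 122 of 262 Slurp1-high cells of the CpG ODN library, Lor in 45 and both in 37. In the LPS library Flg was found in 23 of 64 such cells, Lor in 20 and both in 14. Most Lor-positive cells of this layer were thus also Flg-positive. In Krt4-high cells Lor was found in 40 of 120 and 36 of 92 cells, Flg in 9 and 10, and both in 9 and 9. Here most Lor-positive cells had fewer than 5 Flg UMIs. The fixed limit of 5 UMIs takes no account of cell depth, whose part in these overlaps was not tested.

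**Figure D4:**
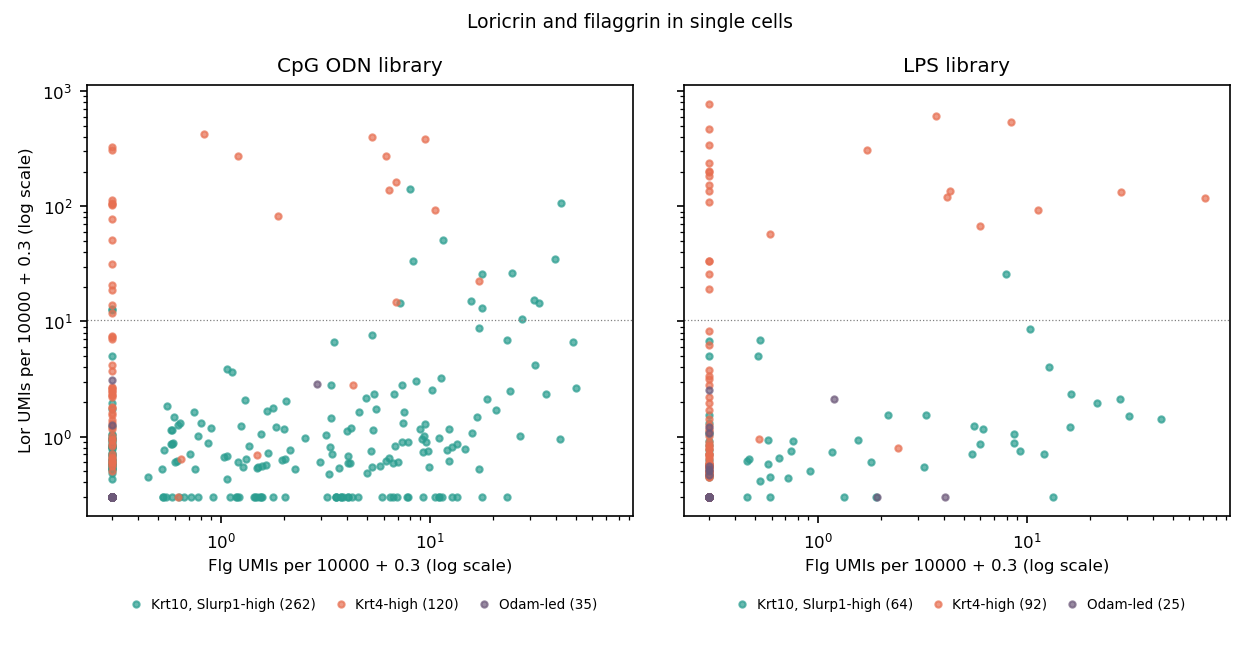
Lor (vertical axis) against Flg (horizontal axis) in single cells, both as UMIs per 10000 UMIs of the cell plus 0.3 on log scales, 1 panel per library and 1 colour per layer. The dotted line marks 10 Lor UMIs per 10000. The 24 and 24 Krt4-high cells on or above the line include many with no Flg UMI, the other Krt4-high cells lie below it, mostly at the left edge, and Slurp1-high cells spread along the Flg axis, mostly below the line.

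Odam-led cells carried a set of Sprr2 genes led by Sprr2d. Odam codes for a protein that ameloblasts and the junctional epithelium secrete, but of 5 junctional markers Odam and Slpi alone passed, and Amtn had no UMI in either library, so the cells were given no type. Sprr2d had 3130 and 6197 CPM in these cells and at most 0.763 in the basal-like, Krt76, Krt10 and Krt4-high cells of either library. Sprr2f had 382 and 1980, Sprr2h 105 and 456, Sprr2e 2.77 and 167, Sprr2i 0 and 114, and Sprr2k 0 and 38.3. Sprr2 genes gave 52.1% and 65.5% of all envelope gene UMIs in these cells. Sprr2d UMIs came from 5 of 35 and 9 of 25 cells, and with at least 5 UMIs taken as found, every cell with Sprr2d (5 and 9) also had Odam, which was found in 11 and 13. Against Slurp1-high cells, 5 of 21 and 9 of 23 genes were higher (20.3% and 17.5% of all genes), of which Sprr2d, Sprr2f, Sprr2h and Sprr2j-ps were higher in both libraries, and 11 and 12 genes were lower (11.4% and 14.4%), 10 of them in both, among them Lor, Flg, Crnn, Hrnr, Rptn, Cnfn and Tgm3. The layer is small, and its 3 cells with the most held 75.9% and 61.5% of its envelope gene UMIs. Markers of other cells moved with this layer. Of 7 myeloid markers S100a8, a gene of neutrophils that stressed epithelia also express, had 143 and 7763 UMIs, Cd68 had 2 and 1, and Lyz2, Csf1r, Tyrobp, Fcer1g and Itgam had none. The 10 markers of gland and simple epithelium summed to 1915 and 1471 CPM, against 12.6 to 187 in the basal-like, Krt76, Slurp1-high and Krt4-high cells. Of these, Wfdc2 had 1420 and 935 and Epcam 332 and 290, while Krt8, Aqp5, Cldn10 and Bpifa2 had no UMI. Their part in the result was not tested.

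The ligands were compared within layers, since the libraries differed in their mix of cells. The layers themselves also differed in keratins between the libraries. Krt4-high cells had Krt76 at 4330 and 1162 CPM, Krt10 at 2314 and 752 and Krt13 at 34186 and 46093. Odam-led cells had Krt76 at 11192 and 5043 and Krt13 at 8430 and 3337. The part of such differences in the ratios below was not tested. Krt4-high cells made up 2.45% (2.04 to 2.93) of the kept CpG ODN cells and 7.20% (5.85 to 8.76) of the kept LPS cells, and they gave 31.1% and 70.6% of the envelope gene UMIs of all keratinocytes. Over all keratinocytes the sum was 2346 in the CpG ODN library and 5475 in the LPS library, a ratio of 0.429 (0.426 to 0.431), and 18 of 31 genes were lower and 1 higher, where 3.24% and 1.85% of all genes were. Within layers the ratios of CpG ODN to LPS were nearer to 1. They were 0.767 (0.707 to 0.833) in basal-like cells, 0.784 (0.756 to 0.813) in Krt76 cells, 1.06 (1.05 to 1.07) in Krt10 cells, 0.602 (0.595 to 0.608) in Krt4-high cells and 0.512 (0.490 to 0.535) in Odam-led cells. With 1 library each, a difference between the preparations cannot be told apart from one between the ligands. In basal-like cells the direction rested on Tgm3, the gene with the most UMIs, since the ratio without it was 1.01, and with layers set cell by cell it was 0.397. The sum in Krt10 cells turned below 1 under 4 other ways of setting the layers, with ratios from 0.807 to 0.937, so its direction was not fixed. In Krt76 cells the ratio was 0.382 when layers were set cell by cell from keratins, and in Odam-led cells it was 0.34 without the 3 cells with the most envelope gene UMIs.

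In Krt10 cells 16 of 21 genes lay within 2-fold. The most extreme ratios among the genes with values were Lce3a at 0.0835 (0.0209 to 0.246) from 4 and 22 UMIs, Sprr2a3 at 0.20 (0.160 to 0.249), and Sprr2h at 2.64 (0.903 to 10.5) from 23 and 4 UMIs. In all, 2 of 21 genes were higher in the CpG ODN library and 3 were lower (1.86% and 1.04% of all genes), the higher ones being Sprr2h and Sprr2j-ps and the lower ones Sprr2a3, Sprr2b and Lce3a. The count rested on the processing. It was 10, all lower, with layers set cell by cell, 10 again, 7 of them higher, without the 3 cells with the most envelope gene UMIs, and 3, all lower, at a clustering resolution of 0.5. Sprr2a3 turned to 1.13 at that resolution. Genes with many UMIs stayed within 2-fold, with Flg at 1.03, Ppl at 1.00, Tgm1 at 0.998, Sprr1b at 1.80, Cnfn at 1.76, Rptn at 1.58 and Hrnr at 1.49. The median log2 ratio of the genes was 0.04, beside -0.03 over all genes. In Krt76 cells 3 of 13 genes were lower and none higher (0.933% and 1.51% of all genes), namely Sprr2a3 at 0.375, Lor at 0.462 and Flg at 0.462. Sprr2a3 turned to 1.81 with layers set cell by cell. In basal-like cells 2 of 11 were higher and none lower (1.36% and 1.19%), Sprr2a3 at 8.22 and Sprr1b at 5.02, from 36 and 2 and from 33 and 3 UMIs.

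In Krt4-high cells 5 of 27 genes were higher in the CpG ODN library and 7 were lower (2.18% and 2.21% of all genes). With barcodes from 200 detected genes taken in, 24 genes instead of 12 were past 2-fold. The most extreme ratios among the genes with values were Sprr2a3 at 19.8 (11.7 to 36.1), Sprr2f at 10.6 (3.66 to 41.9) and Sprr2k at 0.210 (0.147 to 0.292). Sprr2a3 had 175 and 15 UMIs in this layer, of which the top cell held 45.7% and 86.7%, and its ratio turned to 0.827 at resolution 0.5. Lor was at 0.410 (0.402 to 0.418), Sprr3 at 0.439 (0.419 to 0.461), Lce3e at 0.327 (0.304 to 0.350), Lce3f at 0.398 and Lce3c at 0.413. As a mean over cells the 3 Lce3 genes lost these calls, with 0.960, 0.978 and 1.10. Lce3a at 0.877 and Lce3b at 0.900 did not follow them. Hrnr was higher at 2.43 (2.17 to 2.72), and Crnn, at 2.0, fell just short of 2-fold. Single cells weighed on these values. The top cell held 53.0% of Lce3e UMIs in the LPS library, and without the 3 cells with the most envelope gene UMIs in each library the ratio of the sum was 0.747 instead of 0.602. The sum of Lce3 genes had a ratio of 0.541. Outside the genes with values, Lce1f had 67 UMIs in 5 CpG ODN cells and none in the LPS cells, a ratio of at least 37.9, and Ivl had 20 and 3.

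In Odam-led cells 7 of 16 genes were lower in the CpG ODN library and 1 was higher (7.07% and 3.86% of all genes). The most extreme ratios were Sprr2e at 0.0165 (0.000415 to 0.0939) from 1 and 118 UMIs, Sprr2i at most 0.0731 from 0 and 80, and Sprr2f at 0.193 (0.161 to 0.230) from 138 and 1395. Sprr2h followed at 0.231, Sprr2k was at most 0.217, and Sprr2d was at 0.505, within 2-fold. Cnfn was higher at 2.13. Again single cells gave most of the UMIs, with 99.3% of Sprr2f in 1 CpG ODN cell and 96.2% of Sprr2i in 1 LPS cell.

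**Figure D5:**
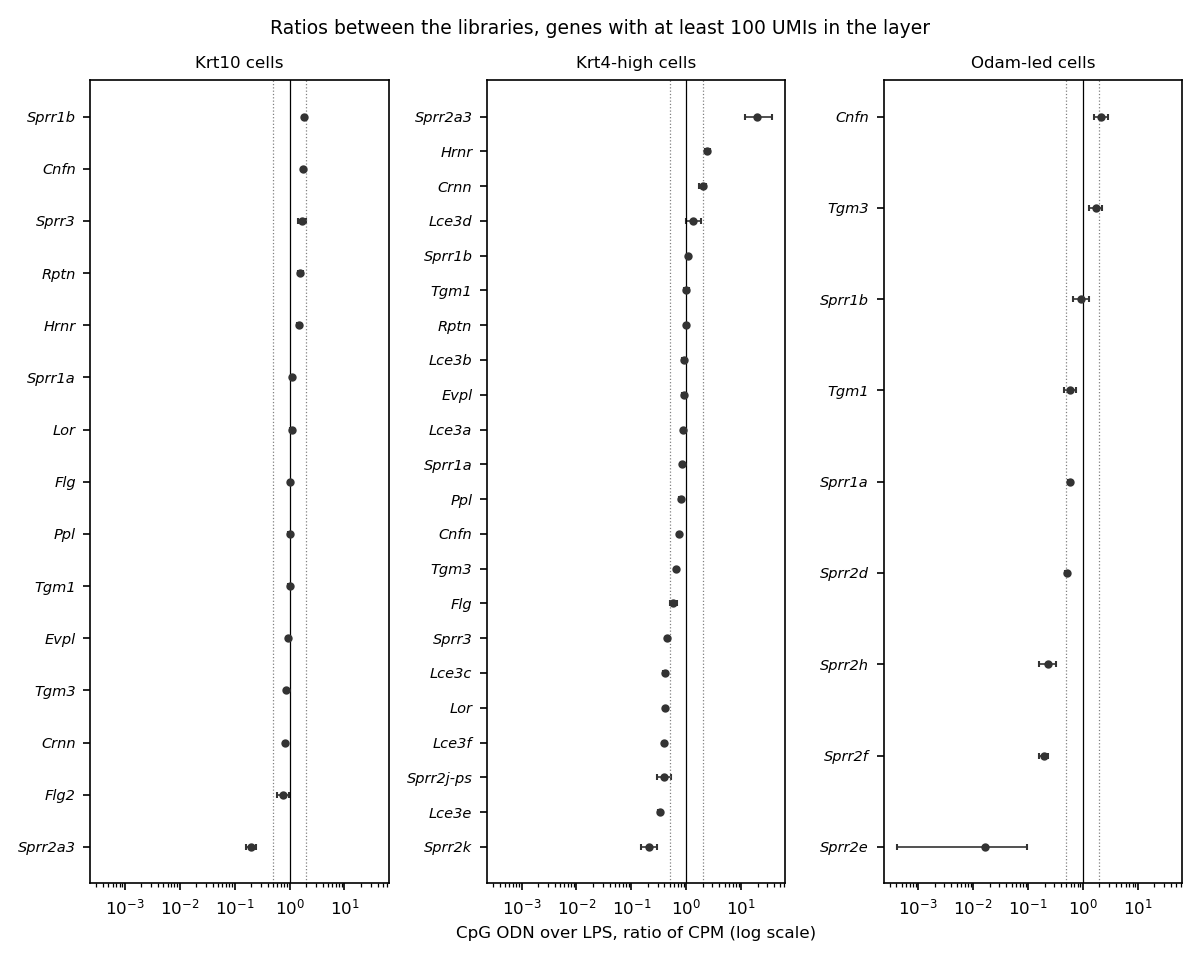
Ratio of CpG ODN to LPS in CPM (horizontal axis, log scale) for genes with at least 100 UMIs in the layer, in Krt10, Krt4-high and Odam-led cells, with exact 95% counting intervals. The solid line marks a ratio of 1 and the dotted lines 2-fold. In Krt10 cells Sprr2a3 at 0.20 is the gene past 2-fold, whereas Lor, Sprr3, Sprr2k, Sprr2j-ps, Lce3c, Lce3e and Lce3f lie below the lower line in Krt4-high cells. Above the upper line in Krt4-high cells lie Sprr2a3 at 19.8 and Hrnr at 2.43.

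Related genes outside the 48 were counted in 5 lists between basal-like and Krt10 cells, beside the background of 9.73% and 9.98% higher given above. Of the genes for cross-linking and envelope lipids, 12 of 13 and 13 of 13 were higher in Krt10 cells. Elovl4, which lengthens the fatty acids of envelope lipids, had 0.706 and 0.387 CPM in basal-like cells and 270 and 273 in Slurp1-high cells. Of corneodesmosome and protease genes, 10 of 13 and 10 of 13 were higher, among them Asprv1, a protease that processes filaggrin, with 12.0 and 14.1 in basal-like and 747 and 1098 in Krt4-high cells. Of minor envelope components, 9 of 14 were higher and 1 lower in both libraries, and Krtdap had 102 and 96.1 in basal-like and 11138 and 11417 in Krt4-high cells. Of transcription factors known from cornification, 12 of 20 were higher and 1 lower in both libraries, and Klf4, which is required for the skin barrier, had 305 and 290 in basal-like and 1512 and 1214 in Slurp1-high cells. Other genes of the epidermal differentiation complex were mixed, with 8 of 14 higher and 2 lower in the CpG ODN library and 5 of 13 higher and 5 lower in the LPS library. Crct1 of this list had 28.4 and 35.1 in Slurp1-high, 1470 and 2595 in Krt4-high and 1685 and 504 in Odam-led cells. Between the libraries few list genes were past 2-fold in Krt10 and Krt4-high cells. In Krt10 cells 1 of 75 was higher in the CpG ODN library, S100a8 at 3.14, and 2 were lower, Klk7 at 0.168 and Barx2 at 0.439. In Krt4-high cells 1 of 75 was higher, S100a8 at 2.46, and 1 lower, Pglyrp3 at 0.481. In Odam-led cells 3 of 53 were higher and 8 lower, and S100a8 stood the other way there, with 396 and 11019 CPM, a ratio of 0.0359 (0.0302 to 0.0424). These counts stand beside the library backgrounds of each layer given above.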

How the data were processed

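Single-cell RNA was sequenced from palatal gingiva with the 10x Genomics 3′ chemistry. The authors aligned the reads and counted UMIs with Cell Ranger (4.0.0 per the file headers) and analysed them with Seurat. The deposited matrices hold raw UMI counts per gene and barcode, and the genome build and annotation are not given in the sources used here. The total was 72173148 UMIs for CpG ODN and 38656738 for LPS.

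From these counts, barcodes with 800 or more detected genes were taken as cells, scaled to 10000 UMIs, log-transformed and clustered (2000 variable genes without the 48 genes and the related lists, 30 principal components, 15 neighbours, Leiden resolution 1.0) with scikit-learn 1.9.0, igraph 0.11.9 and leidenalg 0.10.2 in Python 3.11.15. Layers were set from cluster levels in UMIs per 1000000 (CPM): a keratin sum of at least 10000 with Krt8 under 300, then Mki67 of 300, Odam of 1000, Krt4 of 5000, Krt10 of 2000 (Slurp1-high from 150), Krt76 of 5000 and H19 of 100. The genes and lists were chosen with earlier results of these data known. Scrublet in scanpy 1.11.5 marked 17 of 4888 cells (0.348%) and 3 of 1277 (0.235%), too few to have worked, so doublets stayed in. The keratinocyte clusters were checked on fixed marker lists.

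UMIs were summed per layer and library. With 1 library per ligand no test was made, and the values are ratios of CPM with exact conditional binomial 95% intervals, shares with exact Clopper-Pearson intervals, and counts of genes at least 2-fold apart with at least 20 UMIs. A gene at 0 was set to a floor of 3 UMIs per group, and the bound this gives was counted in its own direction only. Genes with at least 100 keratinocyte UMIs over both libraries were named, with the 3 most extreme ratios of a layer first, and from each list the 4 genes with the most UMIs were eligible; list genes past 2-fold between libraries and genes under 100 UMIs were named after their values were seen. The scripts were tested on simulated counts. Alternatives were other limits on detected genes, other resolutions, layers set cell by cell, clustering with the genes, means over cells, other denominators, doublets, deep cells and top cells left out, and other limits for counting genes.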

Additional observations from a re-analysis of the deposited data

Results flagged for a closer look

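A few Sprr2 genes had ratios of CpG ODN to LPS past 2-fold in opposite directions in different layers. The difference between layers was not tested, since each ligand had 1 library. Sprr2a3 was higher in the CpG ODN library in basal-like cells (8.22) and Krt4-high cells (19.8) and lower in Krt76 cells (0.375) and Krt10 cells (0.20). Other ways of setting the layers turned 3 of these directions, to 0.827 in Krt4-high, 1.81 in Krt76 and 1.13 in Krt10 cells. Its 3′ end shares 57.1% of its stretches with near-identical copies, and in Slurp1-high cells 1 cell held 68.1% of its CpG ODN UMIs and 69.3% of its LPS UMIs. Sprr2f had 10.6 in Krt4-high cells and 0.193 in Odam-led cells, with the top cell at 72.0% of the 25 CpG ODN UMIs in the former and 99.3% of the 138 in the latter. Sprr2h had 2.64 in Krt10 cells and 0.231 in Odam-led cells. Sprr2j-ps had 2.53 in Krt10 cells, 0.396 in Krt4-high cells and 0.487 in Odam-led cells.

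Barcodes with fewer than 800 detected genes, left out of the report's comparisons and taken in only where the limit was lowered to 200, held envelope gene UMIs. In the CpG ODN library 1331 such barcodes had 2651 Lce1 UMIs, against 141 in the kept cells, and 1174 Lor UMIs. In the LPS library 739 such barcodes had 82 Lce1 UMIs, against 10 in the kept cells, and 177 Lor UMIs. Nearly all of the Lce1 UMIs lay in few barcodes, 99.7% of them in 3 barcodes of the CpG ODN library and 100% in 2 of the LPS library.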

How the results depend on the processing

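No paired analysis was possible because a ligand had 1 library only and no numbers pair cells across them. Unless a value is given here, the ratios of the sum in Krt76, Krt10, Krt4-high and Odam-led cells, the Krt10 to basal-like ratios and the counts of genes past 2-fold in Krt10 and Krt4-high cells moved by less than their counting interval or, for counts, less than 1.5 times. The cause of a change was not tested except where the setting itself removes cells or genes.

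Without Tgm3, the gene with the most UMIs, the ratio of CpG ODN to LPS was 1.01 in basal-like cells (a change of direction), 0.882 in Krt76, 1.16 in Krt10 and 0.595 in Krt4-high cells, and Krt10 cells stood 29.7-fold and 25.8-fold above basal-like cells. With a limit of 200 detected genes the sum was at 1.01 in Krt10, 0.661 in Krt4-high and 0.580 in Odam-led cells, Krt10 over basal-like cells was 19.4 and 13.8, and 24 genes instead of 12 were past 2-fold in Krt4-high cells. With a limit of 1200 the values were 1.03, 0.617 and 0.564, and 25.4 and 17.6.

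With layers set cell by cell from keratins, Krt76 was at 0.382, Krt10 reversed to 0.807, Krt10 over basal-like cells was 12.5 and 6.15, 10 genes instead of 5 were past 2-fold in Krt10 cells, all lower, and Sprr2a3 in Krt76 cells reversed to 1.81. With the genes and lists in the clustering, Krt10 reversed to 0.937, Krt4-high was at 0.670 and Krt10 over basal-like cells was 23.5 in the CpG ODN library. At resolution 0.5, Krt10 reversed to 0.818, Krt10 over basal-like cells was 8.33 and 7.78, 3 genes were past 2-fold in Krt10 cells, and Sprr2a3 reversed to 1.13 in Krt10 and 0.827 in Krt4-high cells. At resolution 2.0, Krt10 reversed to 0.911, Krt4-high was at 0.591, Odam-led at 0.576, and Krt10 over basal-like cells at 17.0 and 13.9.

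As a mean over cells, Krt4-high was at 0.841 and Odam-led at 0.423, and Lce3c in Krt4-high cells reversed to 1.10. Without the top 5% of cells by UMIs they were at 0.614 and 0.489, and Krt10 over basal-like cells at 29.1 and 21.9. Without the 3 cells with the most envelope gene UMIs per layer, an alternative chosen after seeing the data, Krt76 was at 0.815, Krt10 at 1.14, Krt4-high at 0.747, Odam-led at 0.340, Krt10 over basal-like cells at 28.9 in the CpG ODN library, and 10 genes were past 2-fold in Krt10 cells. At 1.5-fold 10 genes of Krt10 cells passed, and with at least 100 UMIs 1 did.

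Of 16 single-gene ratios past 2-fold, 6 stayed past it under all alternatives run for them, namely Hrnr, Sprr2k and Sprr3 in Krt4-high cells and Sprr2e, Sprr2f and Sprr2h in Odam-led cells. Layers set cell by cell hold no Krt4-high or Odam-led cells, so these 6 did not meet that setting. Leaving out the 3 top cells of a layer was not run for single genes. An alternative that left a gene without UMIs in a library was skipped, as for Sprr2e, with 1 CpG ODN UMI, without its top cell. Lor in Krt4-high cells ran from 0.227 to 0.539, Lce3e from 0.161 to 0.960 and Lce3f from 0.196 to 0.978. Depth limits the low genes most, since a gene with under 20 UMIs in a layer was not compared, and in Odam-led cells 16 of the 48 genes were.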

Other observations

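In 5 barcodes left out for few detected genes at least 100 UMIs were of envelope genes, and some of them held many Lce1 UMIs. In the CpG ODN library they had 46.5%, 31.4% and 22.0% of their UMIs in the 48 genes, with 2137, 495 and 11 Lce1 UMIs, 484, 398 and 188 Lor UMIs and 772, 474 and 387 Lce3 UMIs. In the LPS library they had 24.0% and 9.90%, with 81 and 1 Lce1 UMIs and 68 and 41 Lor UMIs. The highest kept Krt4-high cell had 15.7% and 19.9%. All 5 had no Krt4 UMI and between 19 and 206 Krt76 UMIs, Flg and Flg2 together gave at most 5, and mitochondrial genes gave at most 0.572% of their UMIs. They had between 404 and 756 detected genes and between 1749 and 7506 UMIs, so a limit on detected genes left out barcodes with many UMIs of few genes. Lce1 genes, a family of late envelope proteins, were thus counted mostly outside the cells that the report describes.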
